A study of Mus musculus with 12 samples.

Results

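Tubulin is the building block of microtubules, and the 10 alpha and beta tubulin genes Tuba1a, Tuba1b, Tuba1c, Tuba4a, Tubb5, Tubb4b, Tubb2a, Tubb2b, Tubb3 and Tubb6 were followed here in KPC cells treated with cisplatin (Cis). They were taken by gene symbol from the 15803 transcripts that had a read in at least 1 library, with 1 representative transcript per gene (coding length 1332 to 1353 bases, transcript length 1598 to 2840). All 10 passed the filter on low values in both assays, a mean scaled RPKM of at least 1 (RPKM is reads per kilobase, relative to the library's reads, here scaled between libraries). KPC is a single pancreatic ductal adenocarcinoma cell line from a tumor of a mouse that carried, among other alleles, Trp53 LSL-R172H and Pdx1-Cre, a Cre driven in the pancreatic epithelium, and every group carried these alleles. The groups were cells without Cis (PBS in the study's methods, of unlabelled duration), cells with Cis for 6 h and cells with Cis for 21 h. Each group had 2 ribosome profiling libraries, which count the mRNA fragments covered by translating ribosomes (footprints), and 2 RNA-seq libraries, 12 libraries in all. Translation efficiency (TE) is the footprint level over the RNA level. The labels number the replicates but do not say that they were separate cultures, so the p-values measure the spread between these libraries.

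Alpha and beta tubulin form a dimer that adds to and leaves microtubule ends, and both come from several genes (isotypes) whose products differ mainly in their tails. Newly made tubulin is folded by prefoldin, the CCT chaperonin and the cofactors TBCA to TBCE. Cells also sense free tubulin: when it is in excess, TTC5 recognises nascent tubulin on the ribosome, and SCAPER brings in the CCR4-NOT deadenylase, which destroys the tubulin mRNA being translated. Tubb5 (class I), Tubb4b and Tuba1b are broadly expressed, Tubb2a and Tubb2b are close copies enriched in brain, Tubb3 (class III) is best known as a neuronal isotype that many tumors also express, and Tuba4a lacks the encoded C-terminal tyrosine of most alpha tubulins.

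Footprint libraries held 3375480 to 5204127 reads and RNA libraries 1985344 to 2901692, of which Lars2, Tmem38b and Mettl26 took 51.8 to 56.6%. Replicates correlated at r of 0.968 to 0.990 across transcripts. The epithelial markers Krt8, Krt18, Krt19 and Cdh1 were abundant in all libraries, with footprint minima of 3214, 1570, 1608 and 88.3 RPKM. Krt7, from the same list, was low (9.19 to 21.9 footprint RPKM), and Epcam had at most 9 footprint reads in any library. The mesenchymal markers Vim, Fn1 and Cdh2 were also present, with footprint minima of 2867, 38.3 and 7.58 RPKM. The acinar markers Prss2 and Cela1 had at most 2.60 and 6.12 footprint RPKM, and Cpa1 was not listed. Immune, endothelial and fibroblast markers, 3 of each, summed to at most 5.40, 0.666 and 3.41 RPKM in any footprint library. The immune sum was higher at 21 h (2.92 to 5.40) than with PBS (1.44 to 2.35), nearly all of it Cd68, while Ptprc and Adgre1 had at most 3 reads in a library, and its part in the values given here was not tested.

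To show what lies before the transcription starts of the genes with the largest rises and of abundant genes that limma did not call higher, the 250 bases upstream of 4 starts are given 5′ to 3′ from RefSeq on GRCm38.p6. Tubb3 and Tubb2a had the largest rises in footprints and RNA, whereas Tubb5 and Tuba1b, the most abundant beta and alpha mRNA, were not called higher by limma in either assay at 21 h (their footprints were called without scaling and with voom, as given with their values). Capitals mark CCAAT (or ATTGG on the other strand), TATAA on the gene's strand, and GGGCGG (or CCGCCC).
Tubb3, chr8:123411303-123411552, plus strand: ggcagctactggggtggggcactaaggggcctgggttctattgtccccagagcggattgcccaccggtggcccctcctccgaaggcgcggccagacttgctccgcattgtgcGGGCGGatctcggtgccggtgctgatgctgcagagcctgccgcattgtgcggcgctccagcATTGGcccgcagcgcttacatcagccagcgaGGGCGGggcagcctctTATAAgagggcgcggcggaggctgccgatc
Tubb2a, chr13:34078009-34078258, minus strand: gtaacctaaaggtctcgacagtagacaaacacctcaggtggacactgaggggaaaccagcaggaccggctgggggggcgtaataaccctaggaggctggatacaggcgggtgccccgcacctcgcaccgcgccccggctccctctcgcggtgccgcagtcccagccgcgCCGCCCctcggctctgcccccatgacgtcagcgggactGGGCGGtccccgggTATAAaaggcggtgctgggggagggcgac
Tubb5, chr17:35838302-35838551, minus strand: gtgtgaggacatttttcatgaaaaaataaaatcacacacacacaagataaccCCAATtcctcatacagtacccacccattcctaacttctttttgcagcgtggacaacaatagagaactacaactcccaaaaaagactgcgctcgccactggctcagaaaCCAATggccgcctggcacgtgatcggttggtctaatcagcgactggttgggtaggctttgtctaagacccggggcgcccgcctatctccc
Tuba1b, chr15:98934391-98934640, minus strand: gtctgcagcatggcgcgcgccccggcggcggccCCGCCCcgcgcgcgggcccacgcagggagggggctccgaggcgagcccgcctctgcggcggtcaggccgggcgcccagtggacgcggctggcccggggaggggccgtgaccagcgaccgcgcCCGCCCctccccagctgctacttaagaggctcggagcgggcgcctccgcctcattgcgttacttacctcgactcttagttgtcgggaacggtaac

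RefSeq windows matched 8 of the 10 genes, all but Tubb2b and Tubb6. In the 4 shown, no match of a motif overlapped another. The windows of Tubb3 and Tubb2a each hold 1 TATAA and 2 GGGCGG, and that of Tubb3 also 1 CCAAT. The Tubb5 window holds 2 CCAAT and neither other motif, and the Tuba1b window 2 GGGCGG and neither other motif. Of the other windows, TATAA was found in Tuba1a and not in Tuba1c, Tuba4a or Tubb4b, so 3 of 8 tubulin windows held it. Among 32851 RefSeq windows of this length, 16.0% held TATAA, 33.8% CCAAT and 32.7% GGGCGG. Of the 8 tubulin windows, 5 held CCAAT and 6 GGGCGG. These matches describe letters and do not show that a factor binds.

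In PBS-treated cells, Tubb5 and Tubb4b supplied most tubulin footprints. Tubb5 footprints were 1676 and 1655 RPKM in the 2 PBS libraries, and Tubb4b 678 and 677. Tubb6 (231 ± 3.08 RPKM, SD, n = 2) and Tuba4a (228 ± 6.41) came next and overlapped, as did Tuba1c (100.5 ± 7.71) and Tuba1b (98.1 ± 9.10). Tubb2a (36.7 ± 1.89), Tubb2b (30.4 ± 2.04), Tuba1a (19.6 ± 3.77) and Tubb3 (4.20 ± 1.92) followed without overlap between neighbours. The 10 genes summed to 3091 ± 27.0 footprint RPKM, of which beta tubulins were 85.6%.

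RNA gave another order among the alpha tubulins. Tubb5 (284 ± 7.76 RPKM, SD, n = 2) and Tubb4b (118 ± 1.02) again led, but Tuba1b (93.0 ± 3.22) ranked next, above Tubb6 (64.4 ± 2.58), Tuba4a (29.1 ± 1.17) and Tuba1c (22.2 ± 0.624). Tuba1a (12.5 ± 2.36), Tubb2b (11.0 ± 2.95) and Tubb2a (10.9 ± 2.08) overlapped, and Tubb3 was lowest with 6 and 8 reads (1.30 and 1.48 RPKM). Tuba1b was 59.3% of alpha tubulin RNA and 22.0% of alpha tubulin footprints, whereas Tuba4a was 18.6% of the RNA and 51.1% of the footprints. These shares depend on how reads that fit several gene copies were counted, as set out below.

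**Figure D1:**
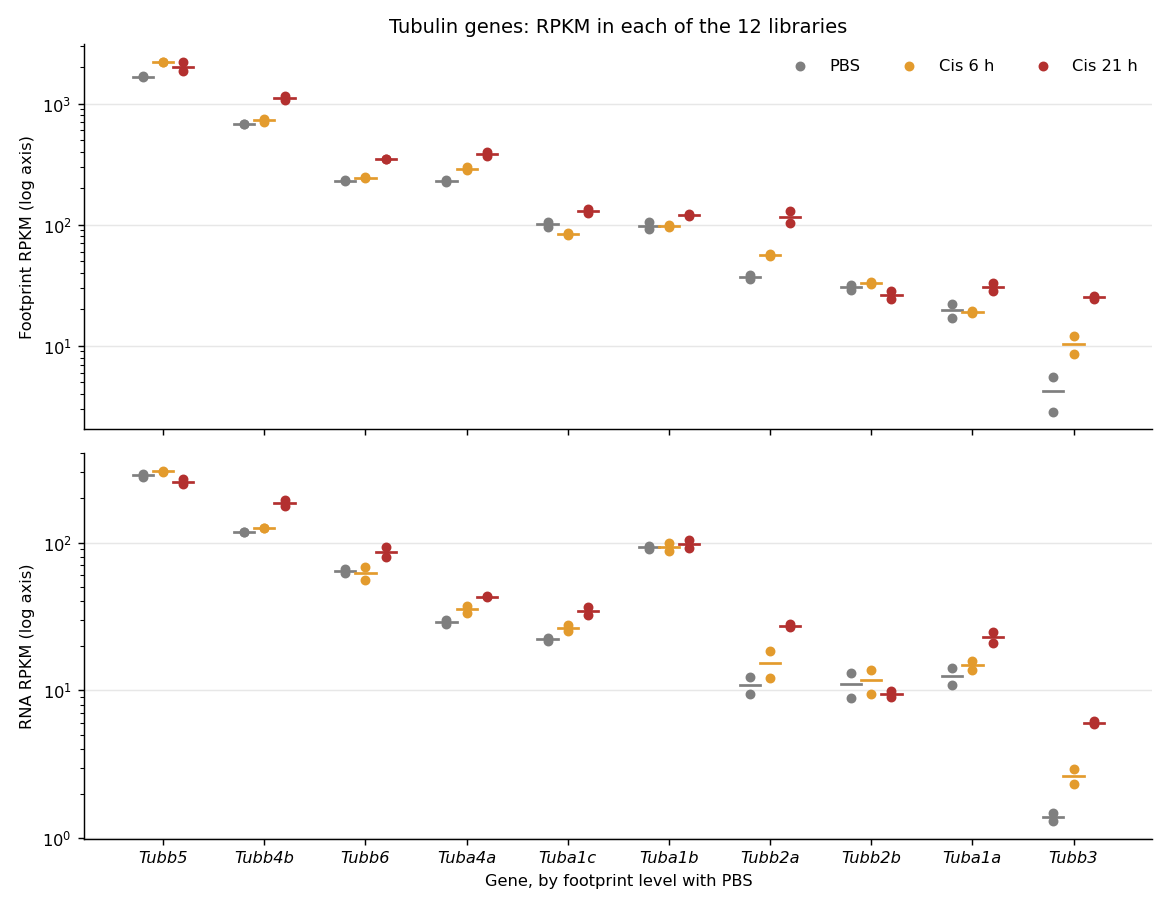
RPKM of the 10 tubulin genes in each of the 12 libraries (points, log axes; bars are means of 2), footprints above and RNA below, ordered by footprint level with PBS. At 21 h both footprint libraries lie above both PBS libraries for 9 genes and below them for Tubb2b, against 37.5% and 32.5% of the 10383 transcripts tested.

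The footprint to RNA ratio with PBS ranged from 7.81 ± 0.0938 for Tuba4a to 1.05 ± 0.0614 for Tuba1b (SD over libraries of the same replicate number, n = 2). Libraries of the same replicate number did not deviate together, which does not exclude that they share an origin. The SD of a ratio depends on the pairing chosen and can understate its spread. The medians over all 9285 and 9286 transcripts were 3.55 and 3.41. Tubb5 (5.86 ± 0.212) and Tubb4b (5.75 ± 0.0560) lay above these medians, and Tuba1a (1.63 ± 0.610) below. Footprints were counted per coding length and RNA per transcript length, so the ratio compares genes only on those scales. Tuba1a, Tuba1b and Tuba1c are known as close copies in their coding part, as are Tubb2a and Tubb2b (their identity was not computed here), and the sources used here do not state how reads that fit several copies were counted. A footprint is short and lies in the shared coding part, while RNA-seq reads also cover the ends of the mRNA. How shared reads were divided could therefore move the levels, ratios, fold changes and calls of these 5 genes, and its part was not tested. Footprint sums over the copies depend little on how reads were divided among them, because their coding lengths are 1353, 1353 and 1347 bases for the alpha copies and 1335 for both beta copies. Sums of RNA RPKM depend on it more, since the transcripts are 1803, 1743 and 1982 bases long for the alpha copies and 1610 and 2182 for the beta copies. Reads dropped or counted more than once would move both kinds of sum. They would also move the shares within alpha and beta tubulin, that of Tuba4a included, and the beta share of all 10 genes. Their part was not tested. Tuba1a, Tuba1b and Tuba1c together had 218 ± 20.6 footprint and 128 ± 0.240 RNA RPKM with PBS.

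**Figure D2:**
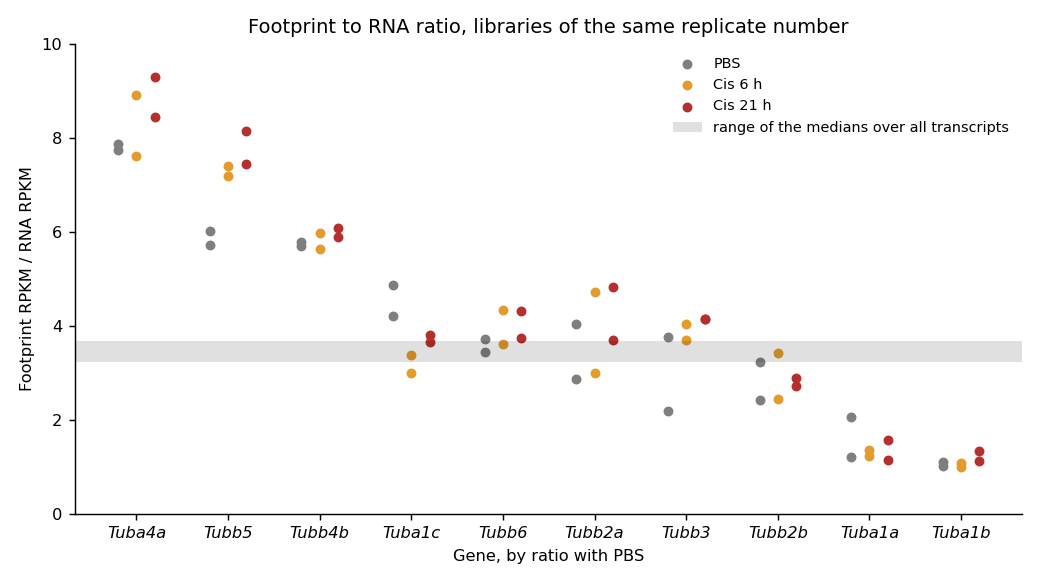
Footprint RPKM over RPKM of RNA for each tubulin gene, pairing libraries of the same replicate number within a group; the grey band spans the medians over all transcripts (3.23 to 3.68 in the 6 pairs). Tuba4a, Tubb5 and Tubb4b lie above the band in all groups, and Tuba1a and Tuba1b below it.

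After 21 h of Cis, footprints of 7 of the 10 tubulin genes were higher than with PBS and none was lower. Of these 7, Tuba1a, Tuba1c and Tubb2a are among the near copies whose calls shared reads could move, which was not tested. Over all 10383 transcripts tested with limma (adjusted p under 0.05), 18.9% were higher and 20.2% lower. The median log2 change of the 10 genes was 0.58, against 0.01 over all transcripts. RPKM is relative to the library total, and in bulk libraries less RNA per cell and fewer cells of a type cannot be told apart. The comparison asks which mRNAs gained or lost footprints relative to the other mRNAs under Cis, not in absolute number. The paper reports inhibited protein synthesis under Cis in a puromycin incorporation assay. A change in the total of that kind cannot be seen in these values.

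Tubb3 (ENSMUSG00000062380) had the largest rise in footprints. It had 2.85 and 5.56 RPKM with PBS (20 and 35 reads), 12.0 and 8.56 at 6 h, and 25.7 and 24.4 at 21 h. The 3 groups did not overlap, and the log2 change at 21 h was 2.47 (SE 0.29, limma adjusted p = 0.000378, 5.53-fold). Even so, Tubb3 was 0.689% of beta tubulin footprints at 21 h, up from 0.159%. Whether Tubb3 shares reads with other beta tubulin genes was not examined, and Tubb5 had 11620 and 10277 footprint reads with PBS. Of the other neuronal markers looked up, Syp was not listed in any library, and Rbfox3 and Map2 were near the floor. None of those listed showed a parallel rise in footprints. Rbfox3 had 0 footprint reads in all groups, Map2 had 3 reads in the 21 h libraries together against 26 with PBS, and Snap25, a synaptic fusion protein, fell by 1.51 on the log2 scale (SE 0.19, limma adjusted p = 0.000516).

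Footprints of Tubb2a (ENSMUSG00000058672) were 35.4 and 38.1 RPKM with PBS, 57.6 and 55.5 at 6 h, and 103 and 129 at 21 h. Again no group overlapped another, and the log2 change at 21 h was 1.61 (SE 0.13, limma adjusted p = 6.25e-05, 3.04-fold). Its near copy Tubb2b went from 28.9 and 31.8 RPKM to 28.4 and 24.4, a log2 change of -0.23 that was not called (95% interval -0.53 to 0.06, limma adjusted p = 0.186). Summed over the pair, footprints went from 67.1 ± 3.94 RPKM to 89.8 ± 2.39 at 6 h and 143 ± 15.5 at 21 h (SD, n = 2).

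Among the abundant genes, Tubb4b rose from 678 and 677 footprint RPKM to 1149.9 and 1074 (log2 0.68, SE 0.08, limma adjusted p = 0.000294). Tuba4a rose from 223 and 232 to 396 and 365 (log2 0.70, SE 0.08, limma adjusted p = 0.000405). Tubb6, a class V isotype found in many tissues, rose from 233 and 229 to 347 and 348 (log2 0.55, SE 0.07, limma adjusted p = 0.00076). For each of the 3, both 21 h libraries were above all 4 other libraries.

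The changes of Tuba1a and Tuba1c were smaller relative to their spread. Tuba1a footprints were 22.3 and 17.0 RPKM with PBS and 33.1 and 28.1 at 21 h (log2 0.60, SE 0.16, limma adjusted p = 0.0166). Tuba1c went from 106 and 95.1 to 135 and 124 (log2 0.33, SE 0.09, limma adjusted p = 0.0242). Neither call held in limma without the second PBS library (adjusted p = 0.112 for Tuba1a and 0.119 for Tuba1c) or without the first 21 h library (0.0749 and 0.0939). That of Tuba1c was also lost with quantile normalization (adjusted p = 0.0869) and without limma's trend (0.0753).

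The broadly expressed Tuba1b and Tubb5 were not called in footprints at 21 h. Tuba1b had 105 and 91.7 RPKM with PBS against 123 and 117 (log2 0.25, 95% interval 0.04 to 0.47, limma adjusted p = 0.0601), and it was called without scaling (0.29, limma adjusted p = 0.0436) and with voom (adjusted p = 0.0321). Tubb5 had 1676 and 1655 with PBS against 1844 and 2196, so the 2 libraries at 21 h differed more than in the other groups (log2 0.24, 95% interval 0.03 to 0.45, limma adjusted p = 0.0726). Without the first 21 h library, the Tubb5 value was 0.37 and was called (limma adjusted p = 0.0116), and it was also called without scaling (0.0423) and with voom (0.00861).

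**Figure D3:**
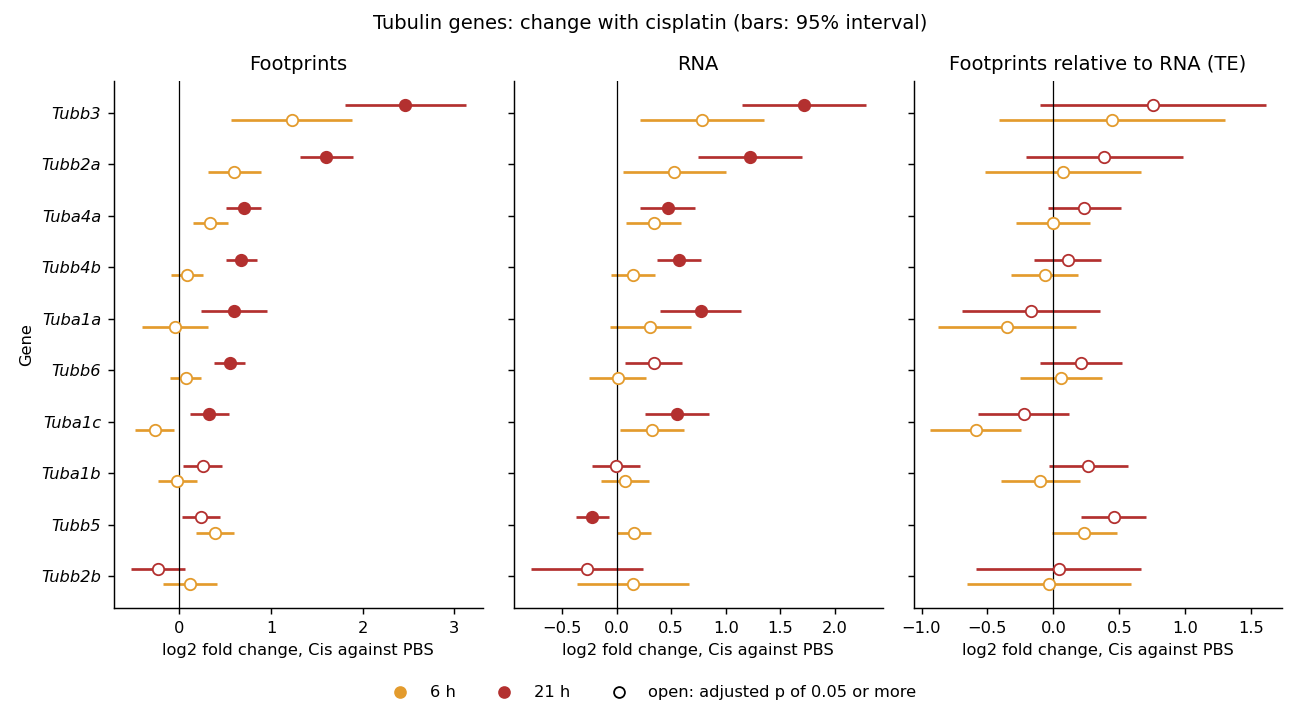
Log2 fold change of each tubulin gene with Cis against PBS at 6 h and 21 h, for footprints, RNA and TE, with 95% intervals from limma; filled points have an adjusted p under 0.05. In footprints 7 genes are filled at 21 h and 0 at 6 h, in RNA 7 (6 higher, 1 lower) and 0, and in TE 0 at both times.

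RNA moved the same way for most of these genes. At 21 h, 6 of 10 were higher and 1 was lower, against 11.6% and 12.2% of the 9443 transcripts tested with limma. The median log2 change of the 10 genes was 0.51, against 0.02 over all transcripts. Tubb3 RNA went from 1.30 and 1.48 RPKM (6 and 8 reads) to 6.21 and 5.89 (27 and 23 reads), a log2 change of 1.71 (SE 0.25, limma adjusted p = 0.00169). Tubb2a RNA went from 12.4 and 9.42 to 28.0 and 26.7 (log2 1.22, SE 0.21, limma adjusted p = 0.00342). Tubb4b RNA went from 117 and 119 to 195 and 177 (log2 0.57, SE 0.09, limma adjusted p = 0.00231). The call of Tubb4b was lost without limma's trend (adjusted p = 0.0507). In all 3 genes both 21 h libraries lay above every other library.

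The RNA of 3 alpha tubulins also rose. Tuba1a had 10.8 and 14.1 RPKM with PBS and 21.0 and 24.7 at 21 h (log2 0.77, SE 0.17, limma adjusted p = 0.00972). Tuba1c had 21.7 and 22.6 against 36.8 and 32.6 (log2 0.55, SE 0.13, limma adjusted p = 0.015). Tuba4a had 28.3 and 30.0 against 42.6 and 43.3 (log2 0.47, SE 0.11, limma adjusted p = 0.0154). Without the first PBS library, none of these 3 calls held in limma (adjusted p = 0.0817 for Tuba1a, 0.0825 for Tuba1c and 0.0949 for Tuba4a). Leaving out either 21 h library also ended the call of Tuba4a (adjusted p = 0.0669 and 0.0511), the second that of Tuba1a (0.0604) and the first that of Tuba1c (0.092). The second PBS library ended those of Tuba1c (0.0693) and Tuba4a (0.0656), as did a fit without limma's trend (0.0635 and 0.0739).

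Tubb5, the most abundant tubulin mRNA, was the gene called lower. Its RNA was 279 and 290 RPKM with PBS, 299.9 and 305 at 6 h, and 247 and 269 at 21 h (log2 -0.22, SE 0.07, limma adjusted p = 0.0395). The 21 h libraries were below the 4 others, but the call was lost without scaling (log2 -0.14, adjusted p = 0.19), with quantile normalization (-0.11, 0.206) and in limma whichever RNA library was left out (adjusted p of 0.052 to 0.161). It was also lost without limma's trend (adjusted p = 0.302), without the filter on low values (0.0646) and with only PBS and 21 h in the model (0.0567), and it held with voom (0.000713). Tuba1b RNA was 95.3 and 90.8 with PBS and 92.4 and 103.8 at 21 h, which overlapped (log2 -0.01, 95% interval -0.23 to 0.21, and 0.07 without scaling). Tubb6 RNA (log2 0.34, 95% interval 0.08 to 0.60) and Tubb2b RNA (-0.27, -0.79 to 0.24) were not called. Tubb6 RNA was called without scaling (limma adjusted p = 0.0324), with only PBS and 21 h in the model (0.0372), with voom (0.00883) and without either 6 h library (0.0407 and 0.0395).

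After 6 h of Cis no tubulin gene was called in footprints, where 1.05% of transcripts were higher and 0.992% lower. At an unadjusted p under 0.05 in limma there were 5, of which 4 were higher, and 2217 of all 10383 transcripts. Limma's voom on the recovered reads called 4 tubulin genes higher, and 454 transcripts higher and 822 lower in all. Tubb2a came nearest, with the log2 change of 0.60 (SE 0.13, limma adjusted p = 0.0537), followed by Tubb5 (0.39, SE 0.09, adjusted p = 0.0666), Tubb3 (1.23, SE 0.29, adjusted p = 0.067) and Tuba4a (0.34, SE 0.08, adjusted p = 0.0779). Voom gave these 4 adjusted p of 0.00118, 0.000276, 0.00183 and 0.00618. Tubb5 had 2222 and 2192 footprint RPKM at 6 h, both above the PBS libraries and at the level of the higher 21 h library. Tuba1c pointed down, from 106 and 95.1 to 82.8 and 85.6 RPKM (log2 -0.27, 95% interval -0.48 to -0.05, adjusted p = 0.157).

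In RNA at 6 h, 0 tubulin genes and 0% of all transcripts were called higher or lower with limma. At an unadjusted p under 0.05 there were 5 tubulin genes, all higher, and 1086 transcripts in all, and voom called 0 tubulin genes and 229 transcripts. The largest value was that of Tubb3 (log2 0.78, SE 0.25, limma adjusted p = 0.314), on 10.5 reads per library at 6 h.

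Between the treated groups, 7 tubulin genes had higher footprints at 21 h than at 6 h and none lower, against 15% and 15.7% of all transcripts. Both comparisons use the 21 h libraries. The log2 differences were 1.24 for Tubb3, 1.0 for Tubb2a, 0.65 for Tuba1a, 0.59 for Tuba1c and Tubb4b, 0.48 for Tubb6 and 0.37 for Tuba4a. The count fell to 4 without the second 6 h library or without the first 21 h library, which ended the calls of Tubb3 (limma adjusted p = 0.0869 and 0.0515), Tuba1a (0.0654 and 0.0748) and Tuba4a (0.0996 and 0.0571). Without the first 6 h library Tuba1a (0.0806) and Tuba4a (0.0524) were not called, nor was Tuba4a without limma's trend (0.0675). Tubb5 was -0.16 (95% interval -0.37 to 0.05), with 1844 and 2196 RPKM at 21 h against 2222 and 2192 at 6 h, so the groups overlapped. It was called lower without the second 21 h library (-0.28, limma adjusted p = 0.0449).

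In RNA, 2 tubulin genes were higher at 21 h than at 6 h and 1 lower, against 7.53% and 8.21% of all transcripts. Tubb3 (log2 0.93, SE 0.25, limma adjusted p = 0.0353) and Tubb4b (0.42, SE 0.09, adjusted p = 0.0145) were higher. Tubb5 was lower (-0.38, SE 0.07, adjusted p = 0.00624). The Tubb3 call was lost in limma whichever RNA library was left out (adjusted p of 0.0516 to 0.152), without the filter on low values (0.08) and with voom (0.0805). That of Tubb4b was lost without limma's trend (adjusted p = 0.134), without either 6 h library (0.0567 and 0.0597) and without the first 21 h library (0.0816). That of Tubb5 was lost without the trend (adjusted p = 0.137). Without scaling, 5 genes were higher and Tubb5 was not called (-0.23, adjusted p = 0.0524), and the median of all transcripts in this comparison then stood at 0.15.

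No tubulin gene was called in TE with limma. At 6 h 0% of transcripts were higher and 0% lower, at 21 h 0.258% and 0.151%, and for 21 h against 6 h 0.592% and 0.42%. At an unadjusted p under 0.05 in limma there were 1, 1 and 2 tubulin genes in these comparisons, of 710, 1183 and 1263 transcripts in all. Voom called 0, 1 and 0 tubulin genes. Over all transcripts it called 4 higher and 10 lower at 6 h, 73 and 78 at 21 h, and 80 and 91 for 21 h against 6 h. At 21 h the TE change was above 0 for 8 of the 10 genes, against 45.2% of all transcripts.

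Tubb5 had the TE change nearest to a call. Its footprint to RNA ratio was 6.01 and 5.71 with PBS, 7.41 and 7.18 at 6 h, and 7.45 and 8.15 at 21 h, so both treated groups lay above PBS. Taken as TE, the log2 change at 21 h was 0.46 (SE 0.11, 95% interval 0.21 to 0.70, limma adjusted p = 0.108). It was called by voom (adjusted p = 0.00266) and in limma without the first 21 h footprint library (0.60, adjusted p = 0.0366). Tuba1c had the lowest TE value at 6 h (log2 -0.59, 95% interval -0.93 to -0.24, adjusted p = 0.322), its ratio going from 4.88 and 4.21 to 2.99 and 3.38. For Tubb3 (0.75, -0.10 to 1.61) and Tubb2a (0.39, -0.21 to 0.98) the intervals at 21 h were wide, so that at this depth a rise in TE could not be told from no change.

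The make-up of the tubulin pool is given as a description, without a test. Its shares depend on how reads that fit several copies were counted, and the part of this was not tested. Summed footprint RPKM of the 10 genes went from 3110 and 3072 with PBS to 3819 and 3718 at 6 h and 4184 and 4430 at 21 h, 1.22- and 1.39-fold the PBS mean. The RNA sum went from 637 and 656 to 697 and 682 and then 760 and 785, 1.07- and 1.19-fold. Tubb5 fell in its share of beta tubulin, from 63.2 and 62.8% of footprints with PBS to 52.7 and 57.8% at 21 h, and from 57.9 and 58.1% of RNA to 43.7 and 46.4%. At 6 h its footprint share had been 66.9 and 67.8%. Tubb4b went the other way at 21 h, from 25.5 and 25.7% to 32.9 and 28.3% of footprints and from 24.4 and 23.8% to 34.4 and 30.4% of RNA. Tuba4a made up 48.9 and 53.3% of alpha tubulin footprints with PBS, 59.8 and 58.4% at 6 h, and 57.7 and 57.6% at 21 h.

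**Figure D4:**
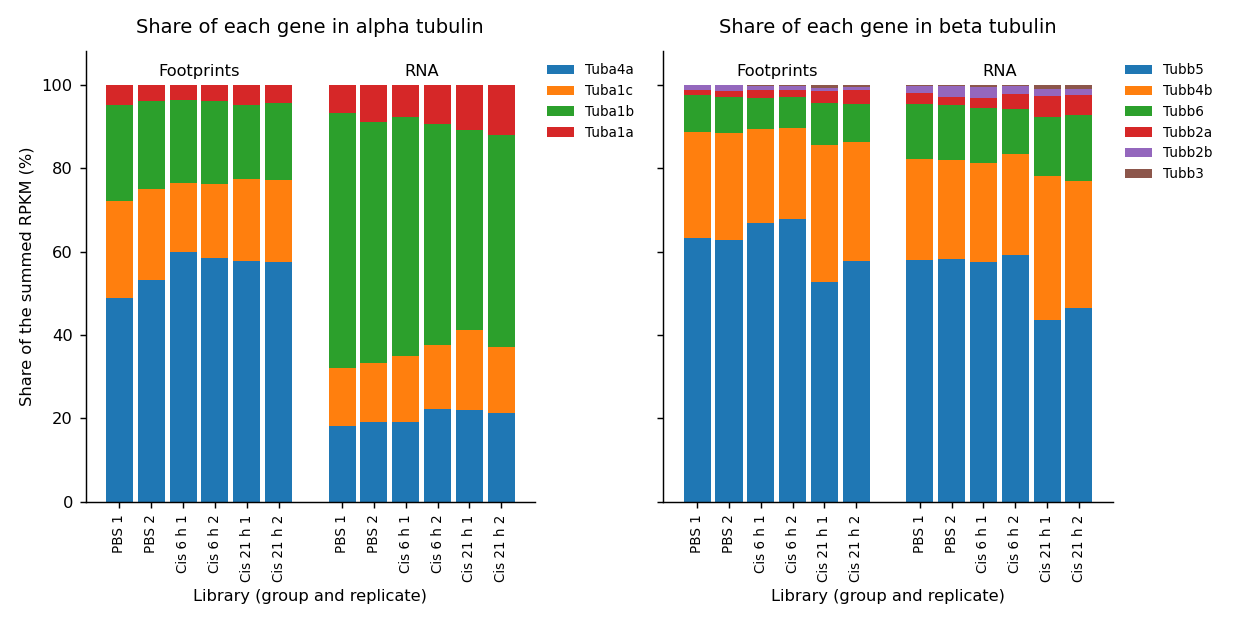
Share of each gene in the summed RPKM of the 4 alpha (left) and 6 beta (right) tubulin genes, in percent, for each footprint and RNA library. The Tubb5 share of beta tubulin is smallest in the 21 h libraries of both assays, and Tuba4a has at least 48.9% of alpha tubulin footprints but at most 22.3% of alpha tubulin RNA. The handling of reads that fit several copies, which is not known, could move these shares.

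Other genes of tubulin biology were counted from lists of symbols, with the 2 largest called rises and falls of each list at 21 h named. Over all transcripts tested at 21 h against PBS, 18.9% were higher and 20.2% lower in footprints. In RNA the shares were 11.6% and 12.2%, and the counts of each list are to be read beside them. Among 12 tested genes of the other tubulins and the gamma-tubulin ring complex, which nucleates microtubules, 2 were higher in footprints and 0 lower. They were Tubg1, gamma-tubulin itself (log2 0.80, SE 0.11, limma adjusted p = 0.000904), and Tubgcp5, a subunit of the ring (0.65, SE 0.22, adjusted p = 0.0429). In RNA, Tubg1 was the 1 called of 11 (0.59, adjusted p = 0.0357). The list's median log2 change in footprints was 0.07, beside 0.01 over all transcripts.

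The folding cofactors and prefoldin subunits went both ways in footprints, with a median of 0.01. Of 13, 2 were higher and 4 lower, beside 18.9% and 20.2% of all transcripts. Tbcd, the cofactor that holds beta tubulin, fell most, from 13.8 and 15.6 RPKM to 3.10 and 5.43 (log2 -1.75, SE 0.25, limma adjusted p = 0.000922), and its RNA fell by 2.07 on the log2 scale (SE 0.26). Tbce, the alpha tubulin cofactor, fell by 0.62 in footprints (SE 0.15, adjusted p = 0.0123). Tbca, a beta tubulin carrier, fell by 0.44 in RNA (SE 0.12, limma adjusted p = 0.0226) and by 0.48 in footprints (SE 0.11, limma adjusted p = 0.0111). Of the prefoldin subunits, Vbp1 rose by 0.37 (SE 0.10) and Pfdn4 by 0.31 (SE 0.08) in footprints. Footprints of Pfdn1, named outside the rule, fell by 0.55 (SE 0.08, limma adjusted p = 0.000991), and those of the other subunits were not called. In RNA, 1 gene of 13 was higher, Pfdn4 (0.66), and 2 lower.

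In the decay pathway for tubulin mRNA, 3 of 12 genes were higher in footprints and 3 lower, near the 18.9% and 20.2% of all transcripts. The median was -0.11. Scaper, the adaptor to the deadenylase, went from 2.25 and 2.30 RPKM with PBS to 0.966 and 0.848 at 6 h and 0.129 and 0.0683 at 21 h (log2 -2.23, SE 0.36, limma adjusted p = 0.00163). These are few reads, 47 per PBS library on average and 1.5 per 21 h library, and its RNA did not pass the filter. Cnot6l, a catalytic deadenylase subunit, was lower in footprints (-0.87, SE 0.14) and in RNA (-1.14, SE 0.22). Cnot3 (0.71, SE 0.16), Cnot11 (0.69, SE 0.12) and Cnot9 (0.64, SE 0.10) were higher in footprints. Cnot9 (0.51, SE 0.14) was also the 1 higher of 11 in RNA, where 1 was lower. Ttc5, named outside the rule because it is the factor that reads nascent tubulin, was not called in either assay (footprints -0.25, SE 0.14, adjusted p = 0.179, and RNA -0.47, SE 0.24, adjusted p = 0.182).

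Enzymes that modify tubulin after it is made were 3 higher and 3 lower of 13 in footprints, near the 18.9% and 20.2% of all transcripts. Their median was 0.14. Ttl, which adds the C-terminal tyrosine to alpha tubulin, was higher (log2 0.93, SE 0.31, limma adjusted p = 0.042), and so was Svbp, partner of the vasohibins that remove it (1.01, SE 0.33, adjusted p = 0.042), the latter on 7.5 and 12 reads per library. Ttll5 (-1.31, SE 0.35) and Ttll7 (-0.98, SE 0.33), which add glutamates to tubulin tails, were lower. In RNA, Hdac6, an alpha tubulin deacetylase, was the 1 higher of 12 (0.85, SE 0.25) and Ttll5 the 1 lower (-1.51, SE 0.36).

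Of 23 tested microtubule-associated proteins and motors, 3 were higher in footprints and 7 lower, beside 18.9% and 20.2% of all transcripts. Their median was -0.06. The plus-end proteins Clasp1 (log2 -1.96, SE 0.23, limma adjusted p = 0.000384) and Clasp2 (-1.27, SE 0.27, adjusted p = 0.00644) fell most. In RNA 2 of 21 were lower, Clasp1, which fell by 1.20 (SE 0.27), and Map4, a microtubule stabilizer, which fell by 1.07 (SE 0.22). Footprints of Map4 were called lower too (-1.17, SE 0.14). Map1b (0.92, SE 0.17) and Map1s (0.64, SE 0.17) rose most in footprints. In RNA 4 were higher, led by the dynein heavy chain Dync1h1 (0.89, SE 0.20) and Map7d1 (0.72, SE 0.17). Footprints of Dync1h1 were called higher too (0.58, SE 0.18), and those of Map7d1 were not called (0.30, SE 0.12).

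Beta tubulin, GAPDH, beta-actin and HSP90 serve as loading controls in the study's immunoblots and Rpl32 as its q-PCR reference, and these genes did not share a direction at 21 h. Gapdh went from 832 and 905 footprint RPKM with PBS to 602 and 640 (log2 -0.52, SE 0.09, limma adjusted p = 0.0023). Actb, beta-actin, went from 5506 and 4966 to 3939 and 4187 (-0.40, SE 0.08, adjusted p = 0.00444). Hsp90aa1, the inducible HSP90, went from 1520.4 and 1498 to 2346 and 2146 (0.54, SE 0.08, adjusted p = 0.000922). Hsp90ab1, the constitutive form, was 3179.7 and 3589.6 with PBS and 3376 and 3338 at 21 h (-0.05, SE 0.08, adjusted p = 0.699). Rpl32 rose by 0.21 in footprints (SE 0.07, adjusted p = 0.0363) and was not called in RNA (-0.16, SE 0.07, adjusted p = 0.145).

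The cytoskeletal genes Actg1 (log2 -0.29, SE 0.07) and Vim (-0.35, SE 0.07) also fell in footprints. Of these 7 genes 2 were higher and 4 lower, against 7 and 0 of the 10 tubulins and 18.9% and 20.2% of all transcripts. In RNA, 1 was higher and 4 were lower, against 11.6% and 12.2% of all transcripts. The 7 were chosen with earlier results of these data known. The summed beta tubulin footprints went from 2654 and 2636 RPKM with PBS to 3498 and 3796 at 21 h. Gapdh at 6 h stood at 1209 and 1092 footprint RPKM, above PBS (limma adjusted p = 0.0629). These values are footprints and mRNA, and protein was not measured here.

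**Figure D5:**
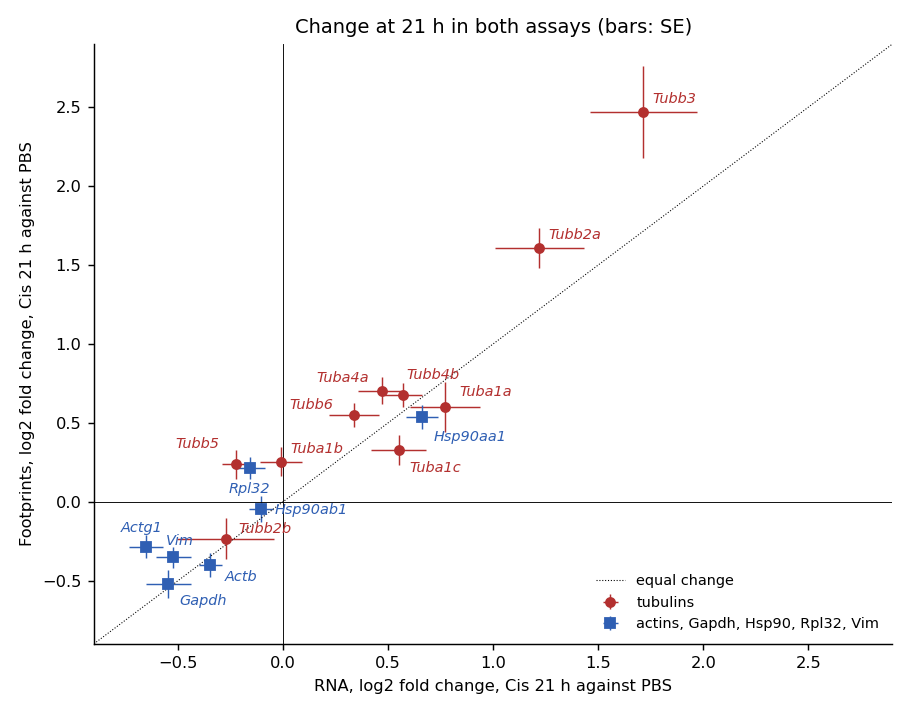
Log2 change at 21 h against PBS in RNA (horizontal) and footprints (vertical) of the 10 tubulin genes (circles) and the 7 loading-control and cytoskeleton genes (squares), with SE from limma; the dotted line marks equal change. Tubb3 and Tubb2a lie at the upper right, and Gapdh, Actb, Actg1 and Vim at the lower left.

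The transcripts whose profile over the 12 libraries was most like the mean tubulin profile (log2 values centred within each assay) were Sgk1 (Pearson r = 0.978), a serum-induced kinase, Slbp (0.974), which binds histone mRNA, Chac1 (0.972), a glutathione-degrading enzyme of the stress response, Cgas (0.972), the cytosolic DNA sensor, and Sf3a2 (0.971), a splicing factor. This is a description over 12 libraries that share groups and depth, and 292 of 9295 transcripts had an r above 0.9. Sgk1 footprints went from a mean of 39.6 RPKM with PBS to 51.2 at 6 h and 120.1 at 21 h. Tubb3 (0.976) and Tuba4a (0.973) were closest to that mean profile among the tubulins, which include them, whereas Tubb5 (0.04) and Tubb2b (-0.41) were not like it.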

How the data were processed

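The authors deposited RPKM per library without pooling, with 1 transcript standing for each gene; footprints are relative to the coding length and RNA to the whole transcript. Cutadapt, STAR and GRCm39 are named in the submitters' processing notes, and the counter and the handling of reads that fit several genes are not given in the sources used here. Transcripts not listed in a library were set to 0. Values times length were whole reads for 100% of values (tolerance 0.01), which gave the depth. Median-of-ratios factors, computed for footprints and RNA apart, scaled the RPKM and lay between 0.959 and 1.09. Transcripts with a mean of at least 1 were fitted as log2(scaled RPKM + 0.5) with limma 3.58.1 in R 4.3.3 (lmFit, eBayes with a trend, 3 groups in a single model per assay). Fold changes are on that scale, which understates changes of low genes. TE was the interaction of assay and treatment over 12 libraries. All tests were two-sided, with a threshold of 0.05 on Benjamini-Hochberg adjusted p. The smallest p of an exact permutation test on 4 libraries in 2 groups is 0.333. The tubulin genes and the other lists were chosen with earlier results of these data known. Named genes were all 10 tubulins, all 7 loading-control genes, the 2 largest called rises and falls per list and assay at 21 h, and the 5 most similar profiles. The fits were also run on simulated reads with the same extra spread for every transcript. Only footprints of well-covered transcripts were changed there, so changes of low genes and shared reads were not covered. Python 3.11.15, pandas 2.3.3 and matplotlib 3.10.9 were used. Promoter sequences came from RefSeq on GRCm38.p6, another build than that of the files. A further allele of the mouse model is not reported here.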

Additional observations from a re-analysis of the deposited data

Results flagged for a closer look

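For 10 values the effect at 21 h differed from that at 6 h by limma's test of the difference. Both effects are taken against the same PBS libraries, so this is the comparison of 21 h against 6 h given above and not a further test. In footprints the log2 difference was 1.24 for Tubb3, 1.0 for Tubb2a, 0.65 for Tuba1a, 0.59 for Tuba1c, 0.59 for Tubb4b, 0.48 for Tubb6 and 0.37 for Tuba4a. In RNA it was 0.93 for Tubb3, 0.42 for Tubb4b and -0.38 for Tubb5, and none of these 3 calls held under every alternative (Tubb3 was lost whichever RNA library was left out, Tubb4b and Tubb5 without limma's trend, adjusted p of 0.134 and 0.137). In footprints those of Tubb3, Tuba1a and Tuba4a did not hold without the second 6 h library or without the first 21 h library. Groups of 2 libraries were too small for a test of single libraries that stand apart.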

How the results depend on the processing

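Tubb3, Tubb2a, Tubb4b, Tuba4a and Tubb6 were called higher in footprints at 21 h under each of the 16 alternatives run. The number of tubulin genes called there was 5 to 7 with 1 library left out and 6 to 9 otherwise. In footprints at 6 h, where none was called, the count was 1 with a pseudocount of 1, without scaling or with quantile normalization, 2 with a minimum of 5 RPKM or only the 2 groups in the model, 4 with voom or an adjusted p under 0.1, and 0 to 2 with 1 library left out, the 2 without either 21 h library. For footprints at 21 h against 6 h it was 4 to 8 with 1 library left out. For RNA at 21 h the count was 3 without the trend and 3 to 7 with 1 library left out, 3 without the first PBS library and 4 without the second or either 21 h library. For RNA at 21 h against 6 h it was 5 without scaling, 1 without the trend, 6 with an adjusted p under 0.1, and 1 to 2 with 1 library left out. In TE at 21 h it was 1 with voom and 0 to 1 with 1 library left out. RNA and TE at 6 h and TE at 21 h against 6 h stayed at 0 throughout. The cause of these shifts was not tested, and a lone library left in a group is assumed to vary like the others.

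The values whose sign turned were near 0 and not called. Tubb6 RNA at 6 h was -0.0604 without scaling, -0.0085 with quantile normalization and -0.0032 with voom. Tuba1b RNA without scaling was 0.0736 at 21 h and 0.0617 against 6 h, and Tubb2b TE at 21 h without scaling was -0.0046. With 1 library left out, footprints at 6 h ranged from -0.22 to 0.12 for Tuba1a and -0.10 to 0.0476 for Tuba1b, RNA at 6 h from -0.0114 to 0.17 for Tuba1b, -0.11 to 0.41 for Tubb2b and -0.14 to 0.16 for Tubb6, RNA at 21 h from -0.0641 to 0.0387 for Tuba1b, and TE at 21 h from -0.35 to 0.0072 for Tuba1a, -0.00055 to 0.22 for Tubb4b and -0.21 to 0.29 for Tubb2b. Libraries of the same replicate number did not deviate together (correlations of deviations of -0.03 to 0.03 within an assay and -0.00080 to 0.02 between assays). This does not exclude that they share an origin. The fit with the replicate block called 7 tubulin genes in footprints and 7 in RNA at 21 h, as without it, and 0 in TE. Without scaling, the calls over all transcripts for RNA at 21 h against 6 h split into 1234 higher and 514 lower, against 711 and 775, and for TE into 42 and 112, against 55 and 39; for TE at 21 h against PBS the split was 18 and 16 without scaling and 15 and 15 with quantile normalization, against 24 and 14. Tubb3 RNA rests on 6 to 27 reads per library, which limits its TE.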
